A study of Mus musculus with 2 samples.

Results

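The let-7 genes that have a mature sequence of their own in the mouse genome annotation are Mirlet7b, Mirlet7d, Mirlet7e, Mirlet7g, Mirlet7i and Mir98. These 6 genes, out of 2202 annotated microRNA (miRNA) genes, were chosen by name and not by level. They were measured by sequencing small RNA, under 30 nucleotides in size, of male B6CASTF1/J mice aged 2 months. The tissue was the cortex of the left cerebral hemisphere, and the mice are crosses of C57BL/6J with CAST/EiJ. The study held 1 group of 2 libraries, library 1 from the animal numbered male 3 and library 2 from male 4, and no second condition. Both samples carry 1 donor identifier in the labels, so the spread between them may be partly technical. Library 1 held 3827158 reads on the sense strand of miRNA genes and library 2 held 4553291.

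The let-7 family is one of the oldest known miRNA families, first found as a timing gene of worm development. Each gene is transcribed as a longer RNA whose hairpin is cut by Drosha and then Dicer, and 1 arm of the hairpin is loaded into Argonaute to repress mRNAs that pair with its seed, bases 2 to 8. Lin28 proteins bind let-7 precursors and block their maturation in stem and progenitor cells, and let-7 is known to be abundant in differentiated tissue such as adult brain.

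The mature arms show both why the genes form a family and where their sequences differ. The 5′ arms, which are the main let-7 guide strands, are printed 5′ to 3′ as RNA from RefSeq (GRCm38.p6), with the seed in capitals. All 6 genes were matched there by symbol.
let-7b-5p: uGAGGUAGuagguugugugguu
let-7d-5p: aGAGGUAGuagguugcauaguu
let-7e-5p: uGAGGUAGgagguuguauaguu
let-7g-5p: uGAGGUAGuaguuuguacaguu
let-7i-5p: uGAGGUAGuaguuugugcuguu
miR-98-5p: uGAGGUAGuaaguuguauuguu

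All 6 share the seed GAGGUAG, so they differ only outside it. The other 6 let-7 genes carry the same seed but come as pairs of loci with 1 mature 5′ sequence per pair, shown here because the family is usually described against let-7a.
let-7a-5p: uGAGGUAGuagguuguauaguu
let-7c-5p: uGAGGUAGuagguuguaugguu
let-7f-5p: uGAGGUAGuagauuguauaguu

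Counted from 1 at the 5′ end, with the base of let-7a first, let-7e differed from let-7a by U9G alone. Let-7b differed by A17G and A19G, let-7d by U1A and U16C, let-7g by G12U and U18C, and miR-98 by G11A and A19U. Let-7i stood farthest from let-7a, with G12U, A17G, U18C and A19U. Among the 6 members the closest pair was let-7g and let-7i, with 2 differences over 22 bases, and the farthest was let-7d and let-7i, with 6. Outside the 6, let-7b differed from let-7c by 1 base. Let-7d is the only member that does not start with U.

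These differences set how long an exactly matching read must be before it fits only its own gene among the annotated hairpins. Matches with a mismatch and the rest of the genome were not searched. Reading from the 5′ end, let-7d-5p was unlike every other annotated mouse hairpin from base 9 on and miR-98-5p from base 11 on. Let-7b-5p, let-7e-5p, let-7g-5p and let-7i-5p needed 17 bases. At 16 bases let-7g and let-7i were still the same, let-7b still matched both let-7a and both let-7c hairpins, and let-7e still matched Mir7k. No whole arm of a member occurred in another annotated hairpin, and outside miRNA genes it occurred only in transcripts that host the member itself. Each 5′ arm of the paired genes that is listed in RefSeq occurred whole in the hairpin of its partner.

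The 3′ arms carry no let-7 seed and are less alike, so reads from them also differ between the genes. They are printed with bases 2 to 8 in capitals, and the counts used here do not separate them from the 5′ arms.
let-7b-3p: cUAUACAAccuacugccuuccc
let-7d-3p: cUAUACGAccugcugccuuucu
let-7e-3p: cUAUACGGccuccuagcuuucc
let-7g-3p: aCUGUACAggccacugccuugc
let-7i-3p: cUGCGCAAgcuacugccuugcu
miR-98-3p: cUAUACAAcuuacuacuuuccu

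By bases 2 to 8 of this arm, Mirlet7b and Mir98 formed a group with UAUACAA, and the other 4 each had their own. Every arm of the 6 members is 22 nucleotides long. Levels are compared here as reads per hairpin gene, with both arms together.

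The hairpins of the highest gene, the lowest gene and the gene overlapped by another miRNA gene follow, with both arms in capitals. Between the arms lie 34 bases in Mirlet7g, 36 in Mir98 and 23 in Mirlet7e.
Mirlet7g: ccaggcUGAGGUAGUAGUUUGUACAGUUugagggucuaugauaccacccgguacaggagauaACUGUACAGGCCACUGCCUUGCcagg
Mir98: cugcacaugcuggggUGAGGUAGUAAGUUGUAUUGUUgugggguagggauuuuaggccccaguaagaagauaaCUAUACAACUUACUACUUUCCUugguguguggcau
Mirlet7e: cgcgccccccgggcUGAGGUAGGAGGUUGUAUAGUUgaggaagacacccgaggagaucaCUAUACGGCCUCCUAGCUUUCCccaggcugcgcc

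The genes lie on 6 chromosomes (mm10, GENCODE M21). Mirlet7g (ENSMUSG00000065440.1) is at chr9:106178840-106178927 on the plus strand in an intron of Wdr82, which encodes a subunit of histone methyltransferase complexes. Mirlet7b (ENSMUSG00000065564.1) is at chr15:85707319-85707403 on the plus strand in an exon of the non-coding gene Lncppara. Mirlet7i (ENSMUSG00000065406.3) is at chr10:122985640-122985724 on the minus strand in an exon of a processed transcript of D630033A02Rik. Mirlet7d (ENSMUSG00000065453.1) is at chr13:48536012-48536114 on the minus strand in an exon of the non-coding gene 6720427I07Rik. Mirlet7e (ENSMUSG00000105758.1) is at chr17:17830352-17830444 on the plus strand in an intron of Spaca6, a gene of sperm function. Mir98 (ENSMUSG00000065536.2) is at chrX:151913214-151913321 on the plus strand in an intron of Huwe1, which encodes a ubiquitin ligase.

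The 6 genes together held 31.7% of the miRNA reads placed at a single gene. By such reads, 5 of them were among the 9 highest miRNA genes. Reads mapped to several places enter neither value, so miRNAs with several loci are undercounted beside these genes. The sum of the 6 was 1121245 reads in library 1, or 29.3% of the sense-strand miRNA reads (95% exact binomial interval 29.25 to 29.34%). In library 2 it was 1555924 reads, or 34.2% (34.13 to 34.21%), for a mean of 31.7% ± 3.45 (SD, n = 2). Each interval covers the counting of reads within 1 library only, not the spread between libraries. No molecular identifiers are stated, so reads may not each stand for a separate molecule. Of all let-7 reads placed at a single gene, the 6 held 98.1% in library 1 and 98.2% in library 2. That share does not measure the family's make-up in the cortex, since a read that fits both copies of let-7a, let-7c or let-7f was tallied apart with all reads mapped to several places, 41.7% and 41.1% of the libraries. Of all reads of a library, mapped or not, the 6 genes held 9.86% and 11.99%.

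Mirlet7g was the highest member. It had 347455 reads in library 1 and 526730 in library 2, or 90787 and 115681 counts per 1000000 sense-strand miRNA reads (CPM), a mean of 103234 ± 17603 CPM (SD, n = 2, as for all means below). By reads placed at a single gene, it ranked second of all miRNA genes in library 1, after Mir139, and first in library 2.

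Mirlet7b came next and was nearly level in the libraries. Its 290005 and 336901 reads gave 75775 and 73991 CPM, or 74883 ± 1262 CPM, the third rank in both libraries. Mirlet7i had 184104 and 283271 reads, or 48105 and 62212 CPM, with a mean of 55158 ± 9976 CPM. Mirlet7d had 148797 and 231373 reads, or 38879 and 50814 CPM, with a mean of 44847 ± 8439 CPM.

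Mirlet7e, the member with the single change from let-7a, was also nearly level. It had 137692 and 157632 reads, or 35978 and 34619 CPM, with a mean of 35298 ± 960 CPM. Mir98 stood far below the rest. It had 13192 and 20017 reads, or 3447 and 4396 CPM, a mean of 3922 ± 671 CPM, and rank 47 in library 1 and 42 in library 2.

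The order Mirlet7g, Mirlet7b, Mirlet7i, Mirlet7d, Mirlet7e, Mir98 was the same in both libraries. The values of neighbours in this order did not overlap except for Mirlet7i and Mirlet7d, where the lower library of Mirlet7i (48105 CPM) lay under the higher library of Mirlet7d (50814 CPM). Within each library Mirlet7i was above Mirlet7d by 1.24-fold and 1.22-fold. The widest step was from Mirlet7e to Mir98, 10.4-fold in library 1 and 7.87-fold in library 2. Mirlet7g exceeded Mir98 by 26.3-fold in both libraries. Divided by hairpin length, where Mir98 has the longest hairpin at 108 bases, the order held and that distance was 32.3-fold (1173 and 36.3 CPM per base of hairpin).

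**Figure D1:**
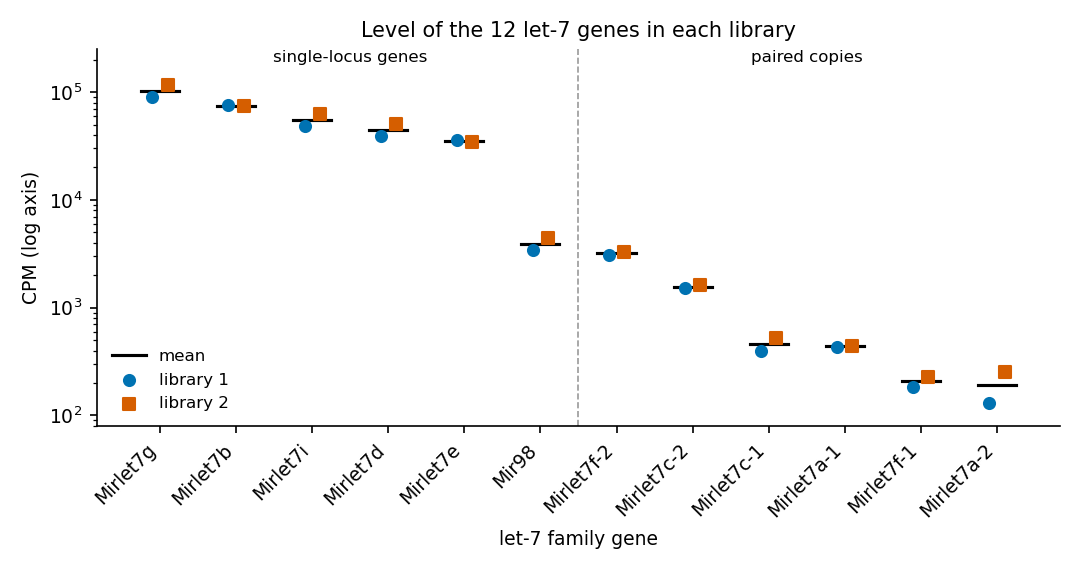
Level of each let-7 gene (CPM, log axis) in library 1 (circles) and library 2 (squares), with the mean as a bar; genes to the left of the dashed line have a mature sequence of their own, genes to the right are paired copies. Every single-locus gene, down to Mir98 at 3922 CPM, lies above the highest paired copy, Mirlet7f-2 at 3186 CPM.

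The paired copies had counts under all 6 members. The highest was Mirlet7f-2 (3186 ± 109 CPM) and the lowest Mirlet7a-2 (192 ± 88.0 CPM), and the 6 copies summed to 0.576% of the reads in library 1 and 0.634% in library 2. Their low counts cannot be read as low expression, because their shared 5′ arms fit more than 1 locus. Mir98 exceeded Mirlet7f-2 in both libraries, but only by 3447 against 3109 CPM in library 1. In RefSeq the seed GAGGUAG stands in a mature RNA of 13 genes. These are 11 of the 12 let-7 genes, Mir1961, which had no read, and Mir7k, which had 1 read in library 1 and 3 in library 2. The exception is Mirlet7a-2, for which only a 3′ arm is listed, although its hairpin holds the whole let-7a-5p sequence and so the seed. A gene with no read could hold up to 0.784 CPM in library 1 and 0.659 CPM in library 2, the level of 3 reads.

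The labels name cerebral cortex, and of 13 miRNA genes listed as markers of cortical neurons 10 had 10 or more reads in both libraries, led by Mir132 at 39333 CPM. The neuronal Mir124a-2 (1 and 7 reads), Mir124a-3 (6 and 1 reads) and Mir9-2 (7 and 8 reads) did not, and these belong to families of 3 loci. In bulk tissue, fewer cells of a type and less RNA per cell cannot be told apart.

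The 6 genes split into a level pair and a group of 4 that was higher in library 2. Mirlet7d was 1.31-fold higher in library 2 (log2 of library 2 over library 1 was 0.39, with an exact 95% interval of 0.38 to 0.40), Mirlet7i 1.29-fold (0.37, 0.36 to 0.38), Mir98 1.28-fold (0.35, 0.32 to 0.38) and Mirlet7g 1.27-fold (0.35, 0.34 to 0.36). Mirlet7b differed by 1.02-fold (log2 ratio -0.03, -0.04 to -0.03) and Mirlet7e by 1.04-fold (-0.06, -0.07 to -0.05), both toward library 1. Those small differences turned toward library 2 when the libraries were scaled by all reads (log2 ratios 0.03 and 0.0043), and that of Mirlet7b also with DESeq2 size factors (0.0073). The 4 others stayed between 0.28 and 0.45 over 20 values from 5 alternative settings, 4 of scaling and 1 without strand.

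An exact binomial test (two-sided, Benjamini-Hochberg adjusted over all genes) called 4 members in favour of library 2 and 2 in favour of library 1. Among all 508 genes tested, 48.4% were called, 25.2% higher in library 1 and 23.2% higher in library 2. Among the 92 genes with a mean of at least 1000 CPM the test called 92.4%, 42.4% higher in library 1 and 50% higher in library 2. A call for every member is thus near what genes of such depth gave. The test compares 2 libraries with counting error alone, and no condition. With the exact test of edgeR at 1 dispersion for all genes, which also holds the spread between the samples (a coefficient of variation of 33.3%), no member differed (adjusted p = 1 for each, smallest unadjusted p = 0.592). That test called 4 of the 508 genes (0.787%), with 25 at an unadjusted p under 0.05. Its dispersion came from these same libraries and takes up every difference between them, so its p-values only place a gene among the rest.

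All 6 members lay within 1.5-fold between the libraries, as did 74 of the 92 genes of at least 1000 CPM (80.4%). A difference of 1.5-fold or more was seen in 19.6% of those 92 genes and in 35% of the 508 genes tested. The median of their log2 ratios was 0.35, against 0.04 over those 92 genes and 0.00055 over the 406 genes with 10 or more reads in both libraries. The median size of the difference was 1.27-fold for the members and 1.24-fold for the 92 genes.

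**Figure D2:**
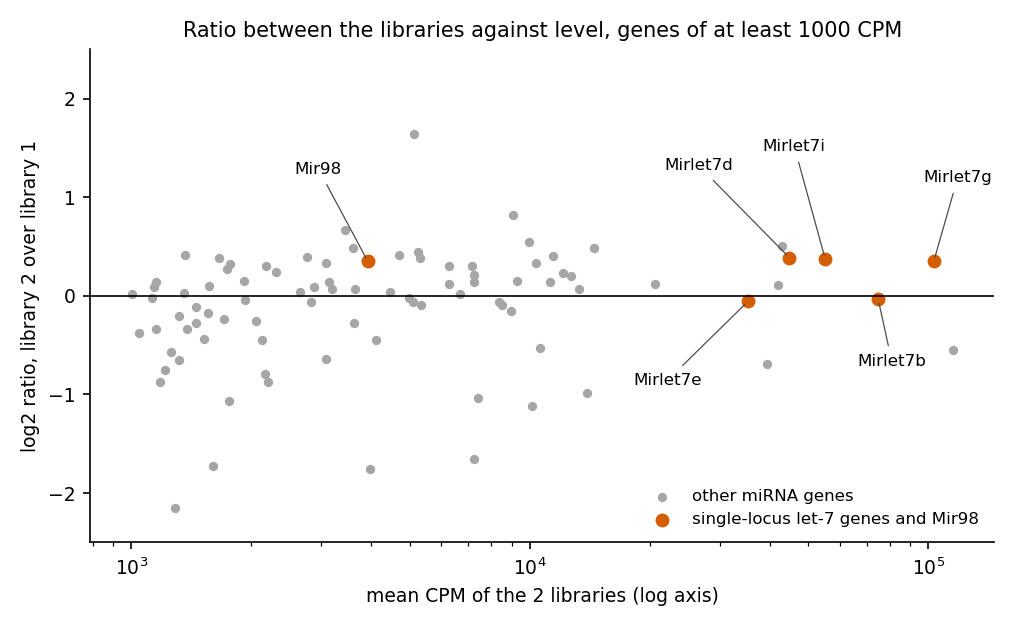
Log2 ratio of library 2 over library 1 against mean CPM (log axis) for the 92 miRNA genes with a mean of at least 1000 CPM; the 6 single-locus let-7 genes are coloured and named. Mirlet7d, Mirlet7g, Mirlet7i and Mir98 sit between 0.35 and 0.39, and Mirlet7b and Mirlet7e at -0.03 and -0.06.

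The ratio of one member to another does not depend on the scaling of the libraries. Among Mirlet7d, Mirlet7g, Mirlet7i and Mir98, the ratio of any pair in library 2 was 0.985 to 1.03 times that in library 1 (6 pairs), although their levels span 26.3-fold. The ratio of Mirlet7b to Mirlet7e, 2.11 in library 1 and 2.14 in library 2, moved by 1.01 times. The ratio of Mirlet7b or Mirlet7e to any of the other 4 was 0.736 to 0.766 times as high in library 2 as in library 1 (8 pairs). This grouping was seen in the values and has no test, and with 2 libraries it rests on 1 difference per gene. Log2 ratios like those of the 4 were also found outside the let-7 family, as in Mir34a (0.37), Mir379 (0.38) and Mir760 (0.38), so they are not particular to these genes.

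As a share of the 6 genes' reads, Mirlet7g made up 31.0% in library 1 and 33.9% in library 2, and Mirlet7b 25.9% and 21.7%. Mirlet7i gave 16.4% and 18.2%, Mirlet7d 13.3% and 14.9%, Mirlet7e 12.3% and 10.1%, and Mir98 1.18% and 1.29%. Mirlet7b and Mirlet7e thus gave smaller shares in library 2, and the other 4 larger ones.

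**Figure D3:**
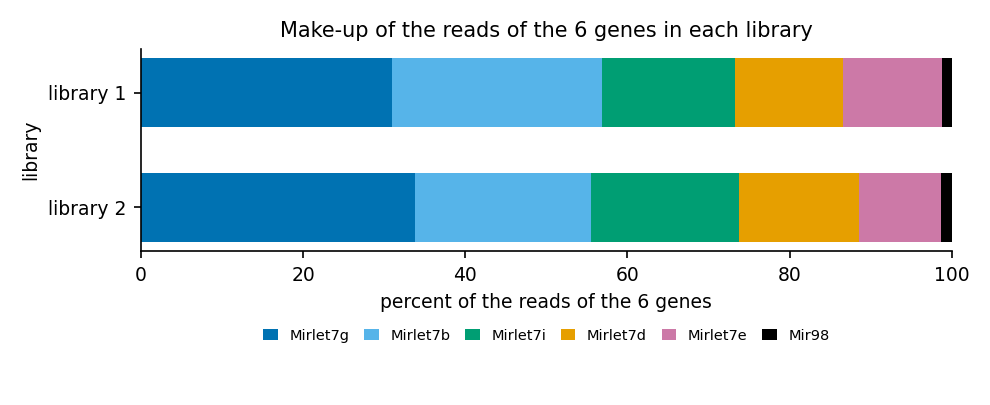
Share of each gene in the reads of the 6 single-locus let-7 genes (percent), library 1 above and library 2 below. Mirlet7g is the widest block in both libraries, and Mirlet7b narrows from 25.9% to 21.7%.

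Among the 6 members, the 2 level genes have the most G in their 5′ arms, 10 of 22 bases in let-7b and 9 in let-7e. Let-7d and let-7i have 8, and let-7g and miR-98 have 7. Outside the 6, let-7c-5p also has 9, and the log2 ratio was 0.40 for Mirlet7c-1 and 0.10 for Mirlet7c-2. That arm occurs whole in both let-7c hairpins, so the counts of both genes leave out reads that match only it. G and C together did not set the level genes apart, with 40.9% in let-7e, let-7d and let-7i alike. This feature was looked for after the ratios were seen. It is a description of 6 sequences, and its part in the ratios was not tested.

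The summed levels of marker lists also differed between the libraries. The 13 neuronal genes held 7.84% of the miRNA reads in library 1 and 5.32% in library 2, and the 2 miR-29 genes used for astrocytes 1.42% and 0.972%. The 3 oligodendrocyte genes held 0.498% and 0.347%, and the 4 genes of microglia and leukocytes 0.213% and 0.171%. Genes of choroid plexus (0.0433% and 0.0459%), liver (0.00724% and 0.00786%) and muscle (0.00253% and 0.00336%) held more in library 2. Within the neuronal list, Mir132 (48515 and 30152 CPM) and Mir128-1 (13881 and 6392 CPM) were lower in library 2, whereas Mir138-1 (4434 and 6046 CPM) and Mir138-2 (2381 and 3132 CPM) were higher there. The 3 vascular genes stood at 1.44% and 1.86%, and the 3 red blood cell genes at 0.0134% and 0.155%, with 223 and 6459 reads at Mir451a. Against the direction of their lists, Mir486 of red blood cells (51.0 and 34.7 CPM) and the vascular Mir145a (254 and 221 CPM) were higher in library 1. So was Mir211 of choroid plexus (3.14 and 1.54 CPM), while Mir219a-1 of oligodendrocytes (6.01 and 7.03 CPM) was higher in library 2. The part of these differences in the ratios of the let-7 genes was not tested.

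Neighbours within a cluster, which can be cut from the same transcript, did not all share their ratios. On chromosome 13, Mirlet7f-1 and Mirlet7a-1 lie in an exon of the same non-coding gene as Mirlet7d, 1714 and 2064 bases away. The log2 ratio was 0.39 for Mirlet7d, 0.30 for Mirlet7f-1 (0.16 to 0.44) and 0.04 for Mirlet7a-1 (-0.05 to 0.14). The interval of Mirlet7a-1 did not overlap that of Mirlet7d, and Mirlet7a-1 alone of these 3 was not called by the exact binomial test (adjusted p = 0.478). These intervals cover counting error only. Both arms of Mirlet7a-1 and the 5′ arm of Mirlet7f-1 occur whole in another let-7 hairpin. Their counts thus leave out reads that match only such an arm, and are not the same measure as the count of Mirlet7d.

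On the X chromosome, Mir98 and Mirlet7f-2 lie 785 bases apart in an intron of Huwe1. Mirlet7f-2 had 11898 and 14858 reads, with a log2 ratio of 0.07 (0.04 to 0.10) against 0.35 for Mir98. On chromosome 15, Mirlet7c-2, 621 bases from Mirlet7b, had 5791 and 7399 reads and a log2 ratio of 0.10 (0.05 to 0.15). In both clusters the intervals of the neighbours did not overlap. The counts of these paired copies hold only reads that fit 1 place, which limits the comparison. Both arms of Mirlet7c-2 and the 5′ arm of Mirlet7f-2 occur whole in another let-7 hairpin, so reads that match only such an arm are left out.

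The widest spread within a cluster was around Mirlet7e. Mir99b, 94 bases from it, had 9542 and 35381 reads, or 2493 and 7770 CPM, a log2 ratio of 1.64 (1.61 to 1.67). Mir125a, 367 bases away on the other side, had 70768 and 42434 reads, or 18491 and 9319 CPM, a log2 ratio of -0.99 (-1.01 to -0.97). Mirlet7e was thus level between a neighbour that was 3.12-fold higher in library 2 and a neighbour that was 1.98-fold higher in library 1. The exact test of edgeR called neither neighbour, but its dispersion takes up every difference between these libraries, so this does not show that they are level. Mir99b and Mir125a belong to the miR-99/100 and miR-125 families, which accompany let-7 genes in several genomic clusters.

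**Figure D4:**
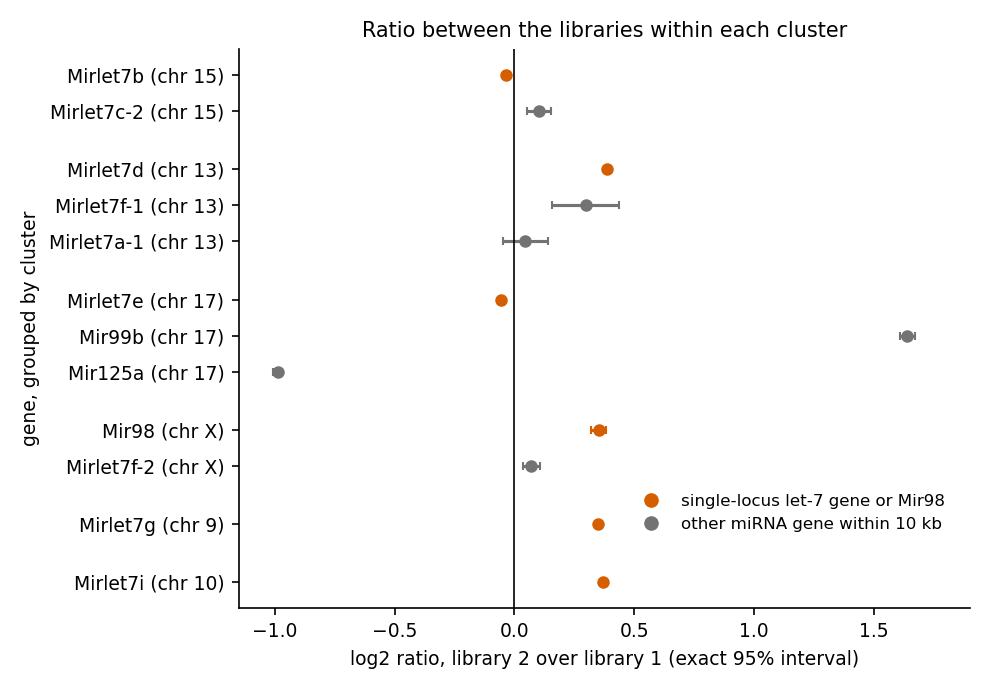
Log2 ratio of library 2 over library 1 with its exact 95% interval for each single-locus let-7 gene and each miRNA gene with reads within 10 kb of it, grouped by cluster; intervals cover counting error only and several are narrower than the point. Mir99b at 1.64 and Mir125a at -0.99 lie on either side of Mirlet7e at -0.06.

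By distance of log2(CPM + 1) over the 2 libraries, the gene most like Mir98 was Mir34a, at 3385 and 4363 CPM (distance 0.03), followed by Mir320 at 3007 and 4216 CPM (0.21). Mir127 was nearest to Mirlet7d, at 35649 and 50487 CPM (0.13), and to Mirlet7i (0.53), with Mir744 second for both (0.23 and 0.57). Mir744, at 40314 and 43618 CPM, was nearest to Mirlet7e (0.37), followed by Mir132 (0.48). Mirlet7g and Mirlet7b had no close match, with Mir139 nearest at 137427 and 93753 CPM (0.67 and 0.92), then Mir127 for Mirlet7g (1.80) and Mir744 for Mirlet7b (1.19). With 2 libraries, this likeness is mostly one of level.

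The strand of the count matters for 1 member. The whole of Mirlet7e lies opposite Gm25927, a miRNA gene annotated at chr17:17830343-17830459 on the minus strand. In the counts that ignore strand, Mirlet7e had 0 reads in both libraries, while Mirlet7d, Mirlet7g, Mirlet7i and Mir98 kept the same number and Mirlet7b gained 11 and 5. Reads that fit overlapping genes are tallied there as ambiguous, 277760 in library 1 and 335196 in library 2. In the sense column that tally was 0 and 1. The 0 of Mirlet7e thus comes from the counting and is no absence of its reads. Gm25927 had no sense read in either library.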

How the data were processed

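The 6 genes, the gene lists and the tests were chosen with earlier results of these data known. The authors deposited 1 table of raw read counts per library, not normalized, for mm10 and GENCODE M21 per the deposited descriptions; aligner and adapter trimming: not given in the sources used here. Each table has 3 count columns (strand ignored, sense, antisense) and 4 tally rows, which were kept out of totals; the layout is that of STAR's gene counts. CPM used the sense column. All 2202 identifiers matched GENCODE M21. Genes with 10 or more reads in total were tested by a two-sided exact binomial test (scipy 1.17.1, Benjamini-Hochberg at 0.05) and by edgeR 4.0.16 (TMM, common dispersion from an intercept-only design, exact test) in R 4.3.3; the quasi-likelihood test needs replicates within groups. Both were tried on simulated data. The genes named are the 6, the other let-7 genes, miRNA genes within 10000 bases and genes with the same seed. The 2 nearest genes by level and the listed markers are also named. Mir379 and Mir760 were added as examples, because their ratios were like those of Mirlet7d, Mirlet7g, Mirlet7i and Mir98. Alternatives were other scalings (TMM, DESeq2 1.42.0 size factors, all reads, totals without the highest gene), count minimums, the column without strand, hairpin length and leaving out each library. Because mm10 is the C57BL/6J sequence, reads from the CAST/EiJ allele that differ from it may have been lost. Mature arms and alleles were not analysed here.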

Additional observations from a re-analysis of the deposited data

Results flagged for a closer look

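Reads outside the sense-strand gene counts were flagged in 3 places. At Gm25927, 137692 antisense entries were counted in library 1 and 157632 in library 2. They equal the sense counts of Mirlet7e, which lies whole opposite Gm25927, so they are the same reads and no further signal. In the same column there were 11 and 5 reads opposite Mirlet7b, and none opposite the other 5 members. The tally of multiply mapped reads was 41.7% in library 1 and 41.1% in library 2, and the sources used here do not say which of them came from let-7a, let-7c or let-7f.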

How the results depend on the processing

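The share held by the 6 genes was 31.7% of sense-strand miRNA reads. It was 10.9% of all reads, 27.7% of uniquely mapped reads and 35.8% when Mir139, the highest gene, was left out of the total, and 29.3 to 34.2% with 1 library left out. The fold from Mirlet7g to Mir98 was 32.3 per hairpin base, and 26.31 to 26.34 with 1 library left out. All 6 members kept their place in the order with either library left out, and 4 did without strand, where Mirlet7e fell to 0 and no fold could be given. The number of members higher in library 1 was 2, but 1 with DESeq2 size factors, 0 with all reads as totals and 1 without strand; Mirlet7b turned to a log2 ratio of 0.0073 with DESeq2 size factors and 0.025 with all reads, and Mirlet7e to 0.0043 with all reads. With edgeR's exact test 0 members differed, 0 in either direction, and 4 of all genes in place of 246. That test on the counts without strand, added after seeing the data, stayed within 1.5 times of 4 genes. DESeq2's own test was not run, since a design that sets library 2 against library 1 leaves no residual degrees of freedom. No paired analysis was possible because the series has 1 group. The depth of 3827158 and 4553291 reads makes counting error small for these genes, and the number of animals limits the precision.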
